A study of Sus scrofa with 7 samples.

Results

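The circadian clock is a loop of transcription factors and their repressors that runs in nearly every cell, and 9 of its genes were examined in pig heart muscle after infarction. They are CLOCK, PER1, PER2, PER3, CRY1, CRY2, NR1D1, NR1D2 and DBP, found by symbol among 20654 genes of the deposited table. Where a gene had several transcript rows, the row was chosen by its mean normalized count over the 7 libraries and not by the difference between the groups. All 9 were present and all 9 had enough reads to be tested. RNA sequencing was done on anteromidventricular myocardium of male farm pigs, 14 weeks after an infarct in the territory of the left circumflex artery. In the 4 libraries labelled S100a1 the animals had been given an adeno-associated virus of serotype 5 that carried human S100A1, a calcium sensor of the cardiomyocyte. In the 3 libraries labelled hrLuc the same kind of virus carried luciferase, a reporter enzyme, so that all 7 animals had both an infarct and a vector. The sources used here do not give the promoter that drives the delivered genes, the animals' age or the time of day at which tissue was taken. Each sample title names a pig with a number, and the libraries were taken as separate animals. The library numbers in the labels are 33, 39 and 45 in hrLuc and 57, 9, 15 and 21 in S100a1, so a batch that followed them cannot be told apart from the label.

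CLOCK and its partner ARNTL (BMAL1) form the activator of the loop, which binds E-box sites and switches on the PER, CRY and NR1D genes and DBP. The PER and CRY proteins return to block the activator. The NR1D proteins (REV-ERB alpha and beta) repress ARNTL, and the ROR receptors activate it from the same sites. As a result, in tissues with a running clock, ARNTL messenger RNA is high at the phase when NR1D1 and DBP are low and the reverse. In the heart the clock is known for daily rhythms in metabolism and electrical activity.

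With 1 row per gene, the libraries held 28679326 to 38409552 reads. Of the 15661 genes tested, 2 passed an adjusted p of 0.05 in limma, a linear model fitted to log2(normalized count + 0.5) across all genes, with p-values adjusted by the Benjamini-Hochberg method. All fold changes below are S100a1 over hrLuc on that scale with their standard errors. The pig S100A1 gene does not check the labels, because the vector carried the human sequence. Its normalized read count was 7461, 6568 and 9125 in hrLuc replicates 1 to 3 and 5950.1, 6804, 6548 and 4429 in S100a1 replicates 1 to 4 (log2 fold change -0.39 ± 0.16, limma adjusted p = 0.577), and its 3 highest libraries, hrLuc replicates 1 and 3 and S100a1 replicate 2, are the same 3 as for DBP below. The 8 cardiomyocyte markers summed to between 4173470 and 5634220 normalized reads in every library, with none at 0. Most of each sum was TTN, at 2569500 to 3842610, so it says little of the other markers. Of the 8 markers, 2 had a log2 fold change below 0. ACTC1, 1 of these 2, was at 28568 in S100a1 replicate 1 and at 51731 to 63288 in the other libraries. RYR2 had a log2 fold change of 0.42 ± 0.16 (limma adjusted p = 0.573, and 0.0412 in the authors' deposited table). Its groups did not overlap, where 3.96% of all genes tested were without overlap and higher in S100a1.

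The design asked how S100A1 delivery changed the infarcted heart, and in this comparison none of the 9 clock genes was past the threshold. DBP, a D-box transcription factor and direct output of the clock, had the largest difference of the 9, at 0.586 times its hrLuc level. NR1D2 and PER3 were next, at 0.738 and 0.784 times, whereas CLOCK and CRY1 had the smallest intervals. The estimates were below 0 for 8 of the 9, with a median of -0.11, where 56.5% of all genes tested were below 0 and the median was -0.02. The count past the threshold was also 0 of 9 in edgeR and in DESeq2 on the recovered reads. Of all genes 0.0128% passed it in limma, 0.00639% higher and 0.00639% lower in S100a1. At an unadjusted p under 0.05 there was 1 of 9, DBP, which was lower, against 8.26% of all genes in either direction and 4.57% lower. The values of the 2 groups overlapped in all 9 genes, where 9.27% of all genes tested did not overlap, 3.96% with S100a1 higher and 5.31% with S100a1 lower. That share was not computed with a heart left out, where a lack of overlap can only become more frequent. In bulk tissue, fewer cells of a type and less RNA per cell cannot be told apart.

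**Figure D1:**
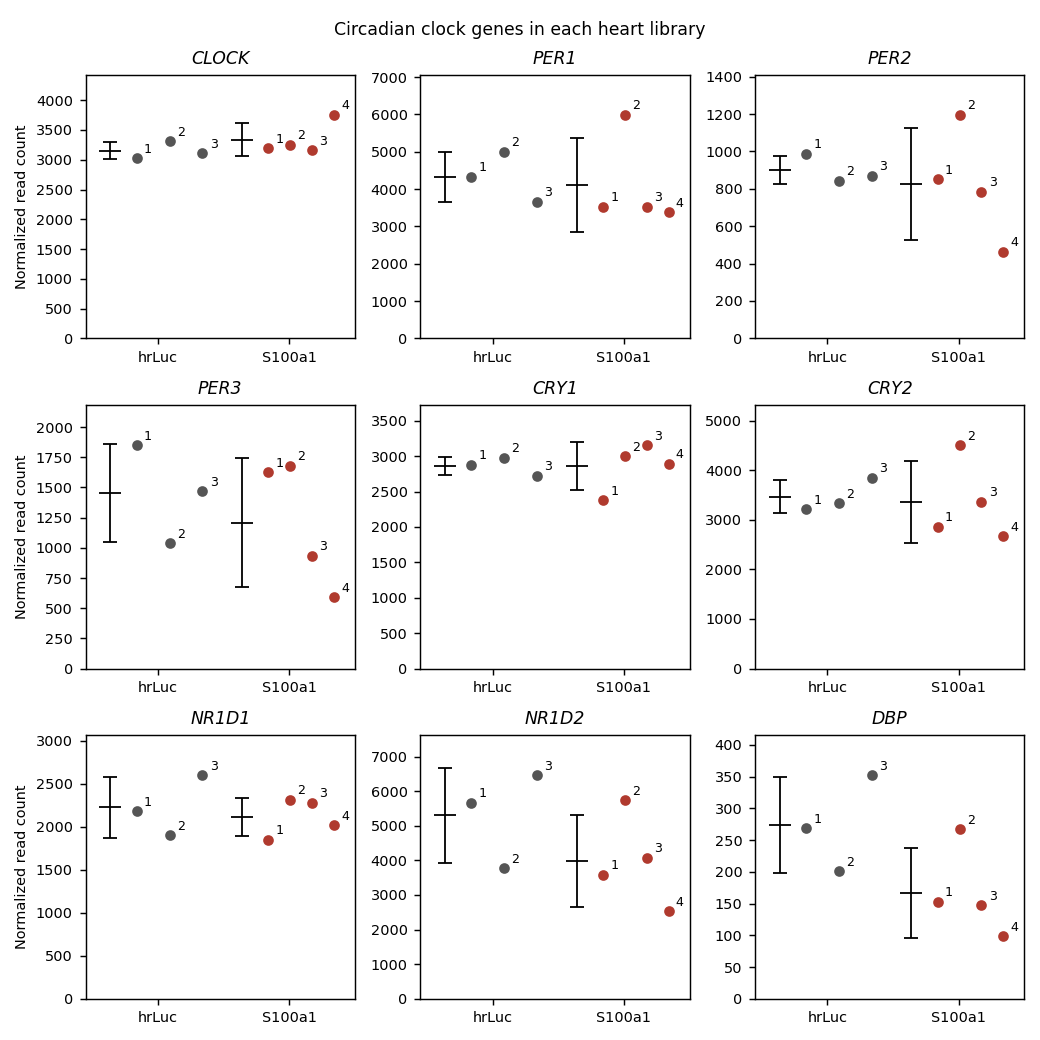
Normalized read count (vertical axis, from 0) of the 9 clock genes in each library of the 2 groups (horizontal axis); each point is 1 heart with its replicate number, and the bar beside the points is the group mean ± SD (n = 3 and n = 4). S100a1 replicate 4 is the lowest library for PER1, PER2, PER3, CRY2, NR1D2 and DBP and the highest for CLOCK, and the groups overlap in every panel.

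The activator gene CLOCK (Sscrofa11.1, chromosome 8, 54793323 to 54910192) was nearly flat. Its normalized read count was 3030.1, 3309 and 3111 in hrLuc replicates 1 to 3 and 3191, 3256, 3157 and 3756 in S100a1 replicates 1 to 4. S100a1 replicate 4 stood above the other 6, which lay within a narrow band. hrLuc averaged 3149.9 ± 144 (SD, n = 3) and S100a1 3339.8 ± 280.2 (SD, n = 4). On the log2 scale the difference was 0.08 ± 0.08 (95% interval -0.09 to 0.26, limma adjusted p = 0.782). Without S100a1 replicate 4 the log2 fold change was 0.024, and without hrLuc replicate 2 the 2 groups no longer overlapped. CLOCK overlaps TMEM165, so the 2 genes can share reads. Its heterodimer partner behaved differently. ARNTL (chromosome 2, 45895637 to 46025174) was at 559.9, 1056 and 584 in hrLuc replicates 1 to 3 and 1154, 502, 1235 and 2338 in S100a1 replicates 1 to 4, a 4.65-fold range from the lowest to the highest heart. The 3 highest were S100a1 replicates 4, 3 and 1, and the 3 lowest were S100a1 replicate 2 and hrLuc replicates 1 and 3. The log2 fold change of ARNTL was 0.70 ± 0.45 (95% interval -0.32 to 1.72, limma adjusted p = 0.672). NPAS2, a paralogue that can replace CLOCK as the partner of ARNTL, was at 1164, 1688 and 1291 in hrLuc replicates 1 to 3 and 1506, 1326, 1395 and 1633 in S100a1 replicates 1 to 4, with its 3 lowest values in the same 3 hearts as ARNTL (log2 fold change 0.10 ± 0.13, limma adjusted p = 0.841).

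The PER genes encode the repressors whose accumulation sets the pace of the loop, and their values differed more between hearts than between labels. PER1 (chromosome 12, 53361863 to 53376723), which also answers directly to glucocorticoids and cyclic AMP, was at 4324, 5004 and 3660.4 in hrLuc replicates 1 to 3 and 3521, 5988, 3528 and 3377 in S100a1 replicates 1 to 4. S100a1 replicate 2 was the highest heart and the other 3 of its label were the 3 lowest of all 7. hrLuc averaged 4329 ± 672 (SD, n = 3) and S100a1 4103 ± 1258 (SD, n = 4). The log2 fold change was -0.11 ± 0.20 (95% interval -0.56 to 0.35, limma adjusted p = 0.892). Without S100a1 replicate 2 it was -0.31 and the groups no longer overlapped, and without hrLuc replicate 2 it was 0.00090.

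PER2 (chromosome 15, 137793419 to 137837854), a core repressor of the loop, was at 987, 844 and 870.2 in hrLuc replicates 1 to 3 and 852, 1196, 784 and 464 in S100a1 replicates 1 to 4. The 3 hrLuc hearts lay close together, inside the range of the S100a1 hearts, whose highest and lowest were replicates 2 and 4. hrLuc averaged 900.3 ± 76.4 (SD, n = 3) and S100a1 824 ± 300.1 (SD, n = 4). This gave a log2 fold change of -0.20 ± 0.26 (95% interval -0.80 to 0.39, limma adjusted p = 0.838), which turned to 0.047 without S100a1 replicate 4. PER3 (chromosome 6, 68487634 to 68548718), the third repressor and one with a large rhythm in many tissues, was at 1852, 1040.3 and 1471 in hrLuc replicates 1 to 3 and 1627, 1679.6, 933 and 593 in S100a1 replicates 1 to 4. Its lowest 3 hearts were S100a1 replicates 4 and 3 and hrLuc replicate 2, a 3.12-fold range over all 7. hrLuc averaged 1454 ± 406 (SD, n = 3) and S100a1 1208 ± 533 (SD, n = 4). The fitted difference in log2 was -0.35 ± 0.36 (95% interval -1.16 to 0.46, limma adjusted p = 0.797), or -0.051 without S100a1 replicate 4.

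The cryptochromes, which bind the PER proteins and block the activator, had group means close to each other. CRY1 (chromosome 5, 13275265 to 13429566), a repressor with a late phase, was at 2881, 2978 and 2722 in hrLuc replicates 1 to 3 and 2376, 2998, 3158 and 2891 in S100a1 replicates 1 to 4. Only S100a1 replicate 1 lay apart from the rest, at the low end. hrLuc averaged 2860.4 ± 129 (SD, n = 3) and S100a1 2856 ± 338 (SD, n = 4). The estimated log2 difference was -0.01 ± 0.10 (95% interval -0.23 to 0.21, limma adjusted p = 0.983), an estimate whose sign turned under 8 alternatives. CRY1 overlaps 4 other genes, MTERF2 and TMEM263 among them, and its kept row had a mean of 2858 normalized reads against 1651 in the next transcript row, so its count is uncertain. CRY2 (chromosome 2, 16587101 to 16620380), the other cryptochrome, was at 3216, 3329 and 3849 in hrLuc replicates 1 to 3 and 2862, 4509, 3366 and 2671 in S100a1 replicates 1 to 4. S100a1 replicate 2 was the highest and replicates 4 and 1 of the same label were the lowest, so the label held both extremes. hrLuc averaged 3465 ± 337 (SD, n = 3) and S100a1 3352 ± 825 (SD, n = 4). On the log2 scale the difference was -0.07 ± 0.17 (95% interval -0.45 to 0.30, limma adjusted p = 0.912), which was 0.025 without S100a1 replicate 4 and 0.0042 without hrLuc replicate 3.

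The 2 REV-ERB genes, whose products repress ARNTL, did not vary alike. NR1D1 (chromosome 12, 22263549 to 22274131), which encodes REV-ERB alpha, was at 2179, 1898 and 2598 in hrLuc replicates 1 to 3 and 1848, 2315, 2277 and 2014 in S100a1 replicates 1 to 4. All 7 hearts lay within a 1.41-fold range, with hrLuc replicate 3 highest and S100a1 replicate 1 lowest. hrLuc averaged 2225 ± 352 (SD, n = 3) and S100a1 2114 ± 222 (SD, n = 4). The log2 fold change was -0.07 ± 0.12 (95% interval -0.34 to 0.20, limma adjusted p = 0.888), or 0.049 without hrLuc replicate 3. NR1D1 overlaps THRA, the thyroid hormone receptor alpha gene, and how strand was handled is not stated in these sources, so its count is uncertain. NR1D2 (chromosome 13, 10756954 to 10791219), which encodes REV-ERB beta and overlaps no other gene, was at 5668, 3775 and 6464 in hrLuc replicates 1 to 3 and 3589, 5746, 4080.5 and 2525 in S100a1 replicates 1 to 4. Its range was 2.56-fold, and its 3 highest hearts were hrLuc replicates 3 and 1 and S100a1 replicate 2. hrLuc averaged 5302 ± 1381 (SD, n = 3) and S100a1 3985 ± 1341 (SD, n = 4). This gave a log2 fold change of -0.44 ± 0.27 (95% interval -1.05 to 0.17, limma adjusted p = 0.658), from -0.24 without S100a1 replicate 4 to -0.66 without hrLuc replicate 2.

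DBP (chromosome 6, 53986955 to 53993044) carries the E-box rhythm of the loop to D-box genes and had the fewest reads of the 9. Its normalized read count was 268, 201 and 352 in hrLuc replicates 1 to 3 and 153, 267, 147 and 98.6 in S100a1 replicates 1 to 4. The 4 lowest hearts were 3 of the S100a1 label and hrLuc replicate 2, and S100a1 replicate 2 lay level with hrLuc replicate 1. hrLuc averaged 274 ± 75.7 (SD, n = 3) and S100a1 166 ± 71.2 (SD, n = 4). The fitted difference in log2 was -0.77 ± 0.32 (95% interval -1.49 to -0.05). The unadjusted p was 0.0378 in limma, and the adjusted p was 0.574 in limma, 0.587 in edgeR and 0.463 in DESeq2 on the recovered reads, and 0.432 in the authors' deposited table. The exact two-sided permutation test over the 35 splits of 7 hearts gave p = 0.114, where the smallest possible is 0.0286. Over the fits that each omit 1 heart the estimate ran from -1.03 (without S100a1 replicate 2) to -0.55 (without S100a1 replicate 4), and without hrLuc replicate 2 or without S100a1 replicate 2 the groups did not overlap. The other transcript row of DBP, with a mean of 173, gave -0.79.

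**Figure D2:**
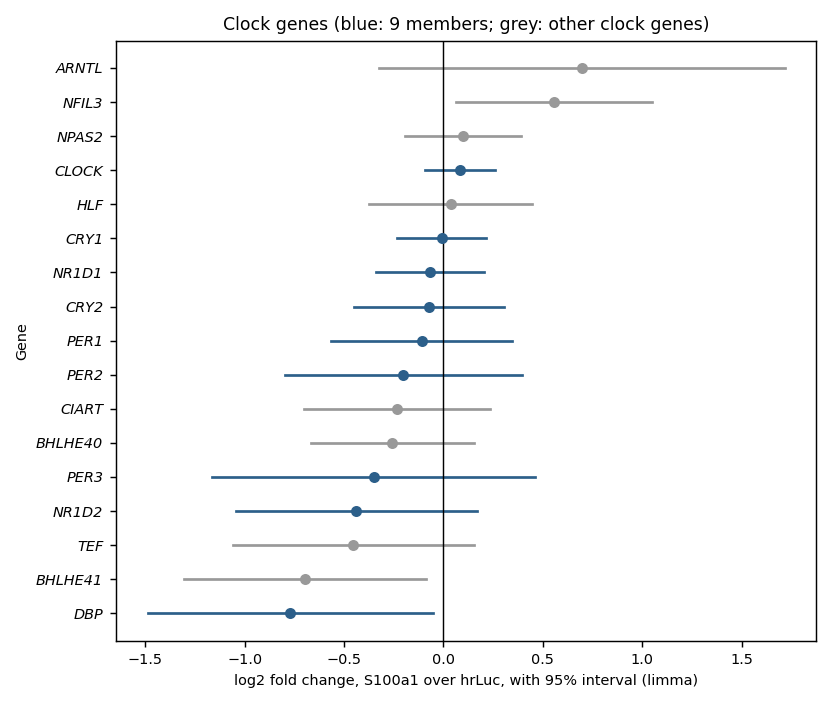
Log2 fold change of S100a1 over hrLuc (horizontal axis, points) with its 95% interval from limma (lines) for the 9 clock genes (blue) and 8 other clock genes (grey), ordered by estimate. DBP is the lowest at -0.77 and ARNTL the highest at 0.70; the intervals are those of single genes and no gene shown passed the threshold adjusted over all genes.

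Some of the clock genes varied between hearts along 1 pattern that ran across both labels. The 3 hearts with the least ARNTL, hrLuc replicates 1 and 3 and S100a1 replicate 2, were also the 3 with the most DBP, NR1D2 and PER2. The same 3 hearts had the most TEF, HLF and BHLHE41 and the least NFIL3 and NPAS2. At the other end, S100a1 replicate 4 had the highest ARNTL and CLOCK and was lowest for 6 of the 9 members. On the log2 scale relative to the mean of 7, S100a1 replicate 4 stood at 1.34 for ARNTL, -1.05 for PER3, -0.99 for DBP, -0.84 for PER2 and -0.78 for NR1D2. Among hrLuc hearts, replicate 2 was on the same side, with the highest ARNTL and the lowest DBP, NR1D2, PER3 and PER2 of its label. Among the members, PER3, PER1, CRY1, CRY2 and NR1D1 had other sets of 3 highest hearts. So did BHLHE40, CIART and TIPIN of the list of other repressors and modifiers, and RORB had another set of 3 lowest. This is a description of values in 7 hearts, and the libraries share the steps of their preparation. No test was made of it.

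**Figure D3:**
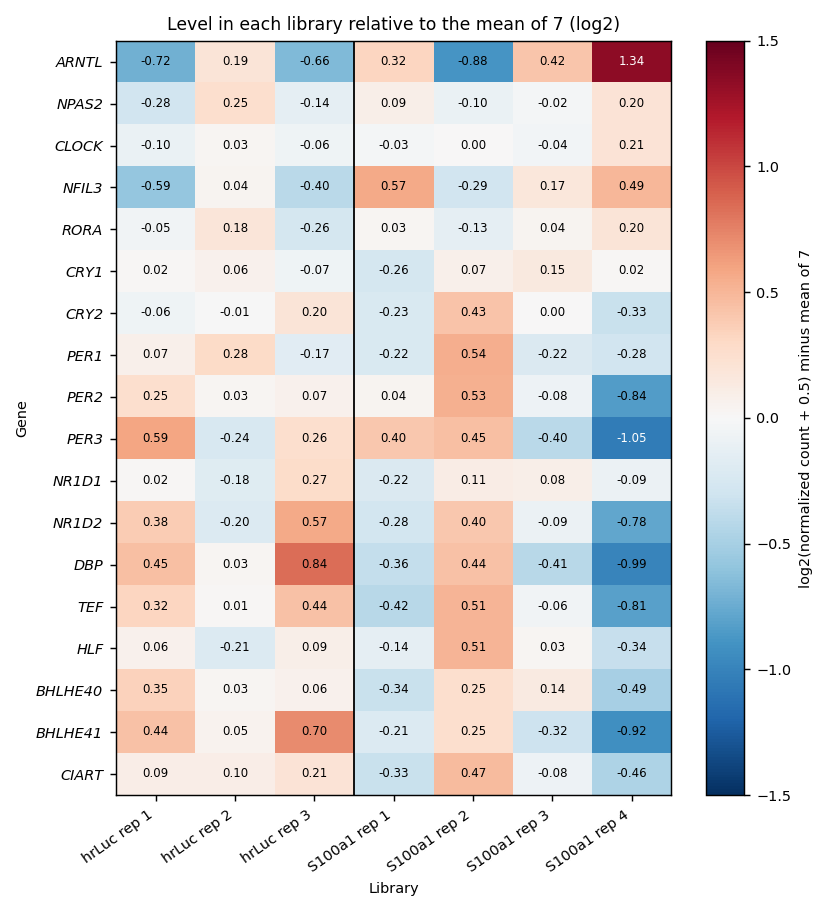
Level of 18 clock genes (rows) in each library (columns), as log2(normalized count + 0.5) minus the gene's mean over the 7 libraries; red is above and blue below that mean, and the black line separates the labels. S100a1 replicate 4 holds the highest ARNTL (1.34) and the lowest PER3 (-1.05) and DBP (-0.99), and S100a1 replicate 2 resembles hrLuc replicates 1 and 3 in ARNTL, DBP and NR1D2.

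The spread between hearts within a label was large for most members. After the group means were removed, the residual SD on the log2 scale was 0.62 for PER3, 0.52 for DBP, 0.46 for NR1D2, 0.44 for PER2 and 0.34 for PER1. The median over all genes tested was 0.16, and 7 of the 9 members lay above it. PER3 was at the 93.9 percentile of all genes and DBP at the 91.1 percentile, whereas CLOCK (0.10) was at the 22.0 percentile and CRY1 (0.14) at the 43.5 percentile. ARNTL, with 0.78, was at the 96.8 percentile. The libraries also differed in how their counts changed with the length of genome a gene covers, from -0.10 in hrLuc replicate 3 to 0.09 in S100a1 replicate 1 on the log2 scale for each 10-fold longer gene. That trend was removed in an alternative added after seeing the data. S100a1 replicate 4, whose own slope was small (0.03), was then at -0.95 for DBP and 1.32 for ARNTL relative to the mean of 7. In hrLuc replicate 3 DBP went from 0.84 to 0.75. The log2 fold change of NR1D1 went from -0.07 to -0.0093.

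Ratios of genes that peak at opposite phases were taken within each heart, where the library's scaling factor cancels. A ratio of read counts also depends on transcript length, so it is read only between hearts and not as a ratio of levels. The log2 ratio of CLOCK over DBP was 3.496, 4.04 and 3.14 in hrLuc replicates 1 to 3 and 4.38, 3.61, 4.42 and 5.24 in S100a1 replicates 1 to 4. It was highest in S100a1 replicate 4 and lowest in hrLuc replicate 3, a 4.30-fold span, and hrLuc replicate 2 lay above S100a1 replicate 2. hrLuc averaged 3.56 ± 0.45 (SD, n = 3) and S100a1 4.41 ± 0.67 (SD, n = 4), a difference of 0.85. The log2 ratio of CLOCK over NR1D1 was 0.48, 0.80 and 0.26 in hrLuc replicates 1 to 3 and 0.79, 0.49, 0.47 and 0.90 in S100a1 replicates 1 to 4. Its span was only 1.56-fold, with hrLuc replicate 2 second to S100a1 replicate 4, and hrLuc averaged 0.51 ± 0.27 (SD, n = 3) and S100a1 0.66 ± 0.21 (SD, n = 4). Since CLOCK was nearly flat, the ratio over DBP mostly repeats DBP itself.

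The ratios with ARNTL, the activator gene with the wider range, separated the hearts more. ARNTL over DBP was 1.06, 2.39 and 0.73 in hrLuc replicates 1 to 3 and 2.91, 0.91, 3.06 and 4.56 in S100a1 replicates 1 to 4 on the log2 scale, a 14.2-fold span between hrLuc replicate 3 and S100a1 replicate 4. The 3 highest were S100a1 replicates 4, 3 and 1, whereas S100a1 replicate 2 lay between hrLuc replicates 3 and 1. hrLuc averaged 1.39 ± 0.88 (SD, n = 3) and S100a1 2.86 ± 1.498 (SD, n = 4). ARNTL over PER3 was -1.72, 0.02 and -1.33 in hrLuc replicates 1 to 3 and -0.50, -1.74, 0.40 and 1.98 in S100a1 replicates 1 to 4, a 13.2-fold span, and ARNTL over NR1D1 was -1.96, -0.84 and -2.15 in hrLuc replicates 1 to 3 and -0.68, -2.20, -0.88 and 0.22 in S100a1 replicates 1 to 4, a 5.34-fold span. In both, S100a1 replicate 2 was the lowest heart and S100a1 replicate 4 the highest, so the S100a1 label held the whole range.

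In all, 24 pairs were taken, with CLOCK, NPAS2, ARNTL or CRY1 over DBP, NR1D1, NR1D2, PER1, PER2 or PER3. The activator switches on CRY1 as it does these denominators, so the pairs with CRY1 are not of opposite phase in the sense above. The S100a1 mean was above the hrLuc mean in 24, the groups overlapped in all 24, and 21 were highest in S100a1 replicate 4. With the gene span trend removed, the difference for CRY1 over NR1D1 turned to -0.034 and the other 23 stayed above 0. The pairs reuse the same 10 genes and the same 7 hearts, so their shared direction is 1 observation and not 24. Without S100a1 replicate 2 the groups were apart in 9 pairs, among them ARNTL, CLOCK, NPAS2 and CRY1 over DBP, and without hrLuc replicate 2 in 7. Leaving out a heart can only add pairs without overlap, and no share over all genes was computed for it, so these counts are a description. The difference for CLOCK over DBP was 0.58 without S100a1 replicate 4 and 1.12 without S100a1 replicate 2. For ARNTL over PER3 it was 1.05 with all hearts and 0.40 without S100a1 replicate 4.

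**Figure D4:**
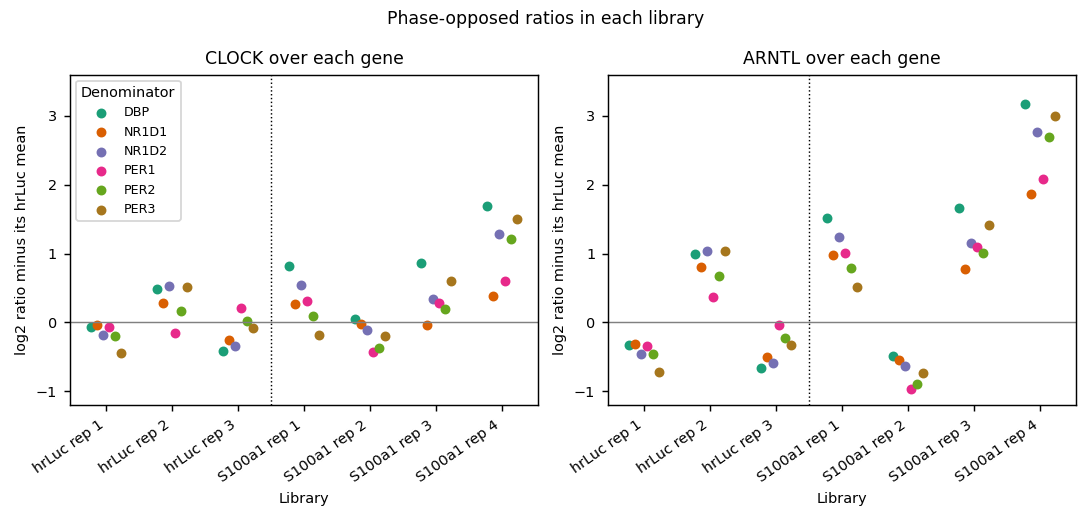
Log2 ratio of CLOCK (left) and ARNTL (right) over each of 6 clock genes (colours), minus the mean of that ratio in hrLuc, in each library (horizontal axis); 0 is the hrLuc mean and the dotted line separates the labels. All 12 ratios are highest in S100a1 replicate 4, and S100a1 replicate 2 lies among or below hrLuc replicates 1 and 3 in the ratios with ARNTL.

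Among 48 other genes of the clock and its outputs, 42 were in the table, 41 were tested and 0 passed the threshold in limma. At an unadjusted limma p under 0.05 there were 6 of the 41, against 8.26% of all genes tested. The count past the adjusted threshold was 0 in edgeR and 2 in DESeq2 on the recovered reads, PDK4 among them. The median log2 fold change of the 41 was 0.02, with 22 above and 19 below 0. The authors' deposited adjusted p was under 0.05 for 0.728% of the genes tested here, and DESeq2 called 0.568%. In the list of the activator and ROR genes, RORB, a ROR receptor, had 14.8 to 37.1 normalized reads and a log2 fold change of -0.35 ± 0.35 (limma adjusted p = 0.789).

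The factors that share D-box sites with DBP split in direction. NFIL3, which represses D-box genes, was at 747, 1150.4 and 848 in hrLuc replicates 1 to 3 and 1666, 919, 1266 and 1579.8 in S100a1 replicates 1 to 4, with a log2 fold change of 0.56 ± 0.22 (limma adjusted p = 0.571). TEF, an activator related to DBP, was at 2340.3, 1894 and 2553 in hrLuc replicates 1 to 3 and 1404, 2666, 1805 and 1067 in S100a1 replicates 1 to 4 (log2 fold change -0.45 ± 0.27, limma adjusted p = 0.651). Both overlapped between the labels through S100a1 replicate 2, which lay within the hrLuc range for NFIL3 and above it for TEF. HLF, the other activator of this family, was at 2208, 1830.4 and 2255 in hrLuc replicates 1 to 3 and 1926, 3019, 2159 and 1673 in S100a1 replicates 1 to 4, with a log2 fold change of 0.04 ± 0.18 that was -0.13 without S100a1 replicate 2. Of the 4 other repressors and modifiers tested, BHLHE41, a repressor at E-boxes, was at 209, 159 and 251 in hrLuc replicates 1 to 3 and 133, 183, 124 and 81.2 in S100a1 replicates 1 to 4 (log2 fold change -0.70 ± 0.27, limma adjusted p = 0.568). It was lowest in S100a1 replicate 4 and highest in hrLuc replicate 3, as DBP was. Its relative BHLHE40 was at -0.26 ± 0.18 and TIPIN, a partner of TIMELESS, at -0.15 ± 0.10.

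**Figure D5:**
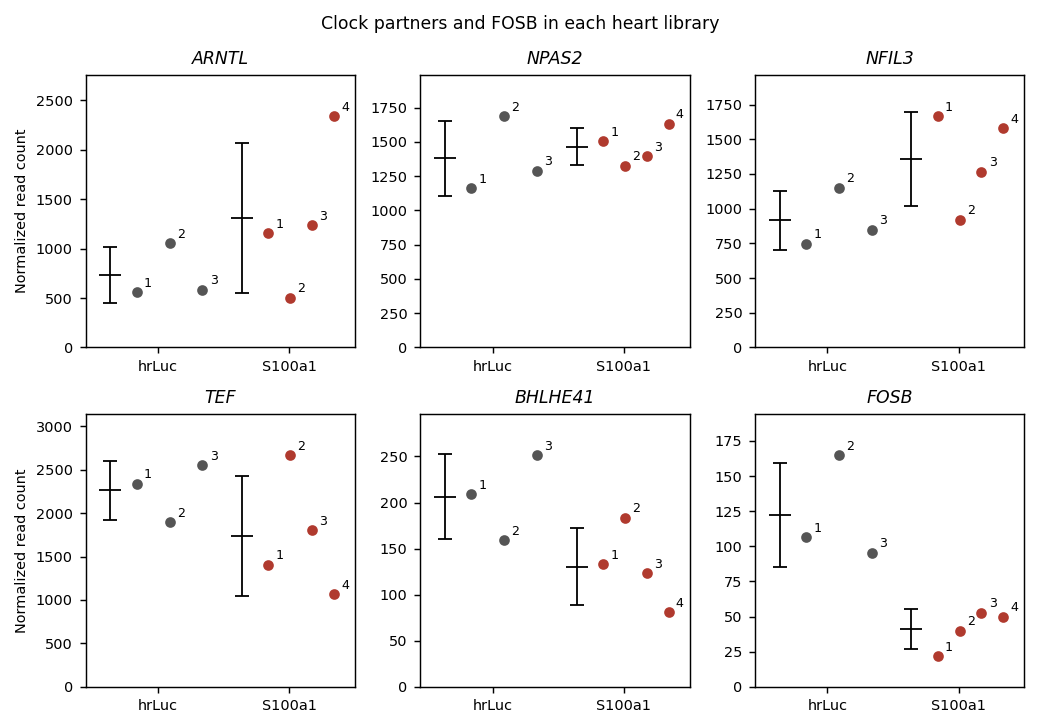
Normalized read count (vertical axis, from 0) of 5 further clock genes and the immediate early gene FOSB in each library, drawn as in the plot of the members, with the group mean ± SD beside the points. FOSB is the panel without overlap between the labels; in ARNTL, NFIL3, TEF and BHLHE41 S100a1 replicate 2 lies with or near the hrLuc hearts.

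The enzymes that set the stability of the PER and CRY proteins differed in their spread between hearts. The 10 kinases and ubiquitin pathway genes tested had a median residual SD of 0.08, below the 0.16 of all genes, and a median log2 fold change of -0.01. The residual SD of 1 of the 10 was above the median of all genes. This was USP2, a deubiquitinase, named after its values were seen, with 0.32 (78.2 percentile). USP2 was at 2864, 2586 and 3008 in hrLuc replicates 1 to 3 and 2201, 3515, 2798 and 1872 in S100a1 replicates 1 to 4, highest in S100a1 replicate 2 and lowest in S100a1 replicate 4, as PER1, PER2 and CRY2 were (log2 fold change -0.16 ± 0.19, limma adjusted p = 0.826). The smallest p were those of PRKAA2, a subunit of AMP-activated kinase (0.20 ± 0.09, limma adjusted p = 0.609), CSNK2A1, a casein kinase subunit (-0.11 ± 0.07), and CSNK1D, which phosphorylates the PER proteins (-0.09 ± 0.07). Of 18 clock outputs tested, 10 were above 0 and 8 below. PDK4, which restrains pyruvate oxidation, was at 751, 599 and 543 in hrLuc replicates 1 to 3 and 1484, 1284, 748 and 998 in S100a1 replicates 1 to 4, and every S100a1 heart but replicate 3 was above the hrLuc hearts (log2 fold change 0.80 ± 0.22). PDK4 overlaps ASB4, so its count is uncertain. Its adjusted p was 0.514 in limma, 0.0332 in DESeq2 and 0.0354 in the authors' deposited table. ELOVL6, a fatty acid elongase, was at -0.55 ± 0.22 (limma adjusted p = 0.574) and CIRBP, an RNA-binding protein induced by cold, at 0.25 ± 0.10 (limma adjusted p = 0.575).

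PER genes also respond to acute stimuli and to glucocorticoids, so genes of both responses were set beside them. Of 6 immediate early genes tested, 5 were below 0, with a median of -0.42, and 0 passed the threshold in limma. At an unadjusted limma p under 0.05 there were 3 of the 6, against 8.26% of all genes tested. Of both response lists together, edgeR called 0 and DESeq2 called 2, JUNB and FOSB. JUNB was at 364, 392 and 359 in hrLuc replicates 1 to 3 and 202, 229, 246 and 262 in S100a1 replicates 1 to 4 (log2 fold change -0.67 ± 0.12, limma adjusted p = 0.342, and 0.00182 in DESeq2). FOSB was at 106, 165 and 95.4 in hrLuc replicates 1 to 3 and 21.8, 40.0, 52.7 and 49.7 in S100a1 replicates 1 to 4 (-1.60 ± 0.33, limma adjusted p = 0.415, and 0.00402 in DESeq2). In these 2 genes the labels did not overlap, where 5.31% of all genes were without overlap and lower in S100a1. FOS was at -1.28 ± 0.36 (limma adjusted p = 0.524, and 0.0565 in DESeq2), EGR1 at 0.18 ± 0.21, ATF3 at -0.12 ± 0.45 and DUSP1 at -0.18 ± 0.25. The authors' deposited adjusted p was 0.00068 for JUNB, 0.0033 for FOSB and 0.0404 for FOS, and above 0.05 for EGR1, ATF3 and DUSP1. hrLuc replicate 2 was the highest heart for FOS, FOSB, JUNB, ATF3 and DUSP1 but the lowest of its label for EGR1. For PER1 it was the second highest heart.

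The glucocorticoid-responsive genes showed no shared direction between the labels, with 3 of 7 above 0, a median of -0.002 and 0 at an unadjusted p under 0.05 in limma. The 7 include PER1, itself a member, at -0.11 ± 0.20, so this count and median are not separate from the members. FKBP5, a chaperone of the glucocorticoid receptor, was at 3174, 2973 and 2729 in hrLuc replicates 1 to 3 and 3079, 7071, 3403 and 2999 in S100a1 replicates 1 to 4 (log2 fold change 0.39 ± 0.27, limma adjusted p = 0.701). ZBTB16, a zinc finger factor, was at 13468, 12974 and 8834 in hrLuc replicates 1 to 3 and 13021, 21026, 12239.8 and 12927 in S100a1 replicates 1 to 4 (0.32 ± 0.21). In both, S100a1 replicate 2 stood well above the other 6 hearts. It was also the highest heart for TSC22D3 (-0.0018 ± 0.14), SGK1 (-0.07 ± 0.17) and KLF9 (0.34 ± 0.17), and for PER1, PER2 and CRY2 among the members, but the lowest for ERRFI1 (-0.28 ± 0.17). The part of either response in the clock values was not tested.

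The genes whose values over the 7 hearts were most like those of CLOCK, DBP and NR1D1 were taken from 12637 genes with a symbol and a mean of at least 50 normalized reads. For DBP they were BHLHE41, the E-box repressor (Pearson's r = 0.990), MRPL34, a mitochondrial ribosomal protein (0.986), and RSL24D1, a factor of ribosome assembly (0.986). For CLOCK they were RAD17, a DNA damage checkpoint gene (0.970), FNIP1, a folliculin partner (0.962), and BOC, a cell surface receptor (0.961). Each was highest in S100a1 replicate 4, as CLOCK was, which the choice by likeness to CLOCK favours. For NR1D1 they were TNS3, a tensin of focal adhesions (0.983), BUD23, an RNA methyltransferase (0.983), and PLAA, an activator of phospholipase (0.982). With 7 points that share library preparation and depth, and 12637 genes to search, likeness of this size is a description and has no test.

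Markers of other cell types were compared over the same hearts. The 5 fibroblast markers summed to 45091 to 56372 normalized reads in hrLuc and 31123 to 46447 in S100a1, with 4 of 5 below 0. Most of each fibroblast sum was COL1A1. The 4 endothelial markers summed to 20155 to 23127 and 19958 to 21478, with 3 of 4 below 0. The 4 smooth muscle and pericyte markers summed to 12823 to 18777 and 11702 to 13797, with 4 of 4 below 0. The 3 T cell markers summed to 107 to 345 in hrLuc and 96.1 to 156 in S100a1, with 3 of 3 below 0, and PTPRC was at 1180.4 to 2015 and 1104 to 1355. The 3 macrophage markers ran from 3495 to 4389 in hrLuc and from 3026 to 5131 in S100a1, with 1 of 3 below 0. The 2 erythroid markers in the table summed to 109 to 297 and 56.8 to 224, both below 0. The 2 B cell markers were under 24 normalized reads in sum, and the adipocyte sum ran from 88.1 in S100a1 replicate 3 to 1015 in S100a1 replicate 2. The part of any of these cell types in the clock values was not tested.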

How the data were processed

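RNA-seq of 7 pig myocardium libraries was analysed, 3 labelled hrLuc and 4 labelled S100a1. Per the labels' protocols, libraries were made from total RNA with a kit that depletes ribosomal RNA. Per the submitters' processing notes, the genome build was Sscrofa11.1, and R 4.1.2, FastQC 0.11.8 and DESeq2 1.33.1 are named without a role. The sources used here name no aligner or counter. Each deposited library column holds a signal: read counts per transcript over 1 scaling factor per library. In each library 100% of values were whole multiples of 1 read (within 0.01 read), so reads were recovered. The deposited log2 and ratio columns give the authors' fold change, and the deposited p-value column their adjusted p.

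Of 63562 transcript rows, all matched to RefSeq genes of Sscrofa11.1, the row of highest mean was kept per gene. Genes with at least 10 in at least 3 libraries (15661) were fitted with limma 3.58.1 in R 4.3.3 on log2(value + 0.5) with a mean-variance trend and no covariates (two-sided, 5 residual and 3.84 prior degrees of freedom). The count test fixed for whole counts was replaced by this branch because the file holds normalized values; the alternatives on recovered reads were DESeq2 1.42.0, limma-voom and edgeR 4.0.16. edgeR called 2 genes, or 0.0128%. The 4 tools were tested on simulated data. Replicate numbers were not taken to pair the animals. The members and lists, and the rule for named genes (all members, genes past the threshold or the 3 of smallest p per list, all genes of the 2 response lists, and 3 genes most like each of CLOCK, DBP and NR1D1), were chosen with earlier results of these data known. Removal of the trend with gene span and limma-voom were added after seeing the data. Some genes of the fixed lists are not reported here.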

Additional observations from a re-analysis of the deposited data

Results flagged for a closer look

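In the 4 S100a1 libraries, 44 values (genes and ratios) were checked for a library far from the other 3 by Dixon's 95% criterion, which chance meets in about 1 in 20 groups. The check picked out 4. CLOCK was at 3756 normalized reads in S100a1 replicate 4, above 3157 to 3256 in the other 3. PER1 was at 5988 in S100a1 replicate 2, above 3377 to 3528. FKBP5 was at 7071 and ZBTB16 at 21026 in the same S100a1 replicate 2, so 3 of the 4 values come from 1 heart. The hrLuc group of 3 was too small for this check.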

How the results depend on the processing

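None of the 9 members passed the adjusted threshold under any of the 22 alternatives run, a threshold of 0.10 among them. CLOCK, PER3, NR1D2 and DBP kept their direction under all alternatives run on single genes. CRY1, whose estimate was -0.01, was 0.038 with median centring, 0.080 and 0.053 with the lowest and middle transcript row, and 0.018, 0.016 and 0.012 with edgeR, DESeq2 and limma-voom. With a library left out, log2 fold changes ran from -0.061 to 0.076 for CRY1, -0.31 to 0.00090 for PER1, -0.41 to 0.047 for PER2, -0.23 to 0.025 for CRY2, -0.18 to 0.049 for NR1D1 and -0.13 to 0.15 for HLF. Members without overlap between labels ran from 0 to 2, and ratios without overlap from 0 to 9. The counts above 0 came from leaving out a heart, for which no share over all genes was computed. Of all genes tested, 2 passed the threshold, and 0 to 3 did with a library left out (1 without hrLuc replicate 2 or S100a1 replicate 2, 0 without hrLuc replicate 3 or S100a1 replicates 1, 3 or 4); the count was 1 with median centring, 0 with limma-voom and 89 with DESeq2. DESeq2 called 2 other clock genes, PDK4 among them, and 2 of the response genes (JUNB and FOSB). The causes of these changes were not tested. The numbers in the titles were not taken to pair the animals. Correlations of same-numbered deviations were -0.02, -0.07 and 0.08, and not every library correlated best with its own number. Such correlations cannot exclude a pairing. With the replicate block, S100a1 replicate 4, the only library with its number, no longer informs the contrast: 0 genes passed over the whole table, PER2 was at 0.047 and CRY2 at 0.025, the values without that library. Of the members, depth limits DBP most, at 98.6 to 352 normalized reads. The residual SD was nevertheless larger for PER3 (0.62) than for DBP (0.52), and 3 against 4 hearts leaves wide intervals.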

Other observations

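The values of 3 further clock outputs, chosen after they were seen, are given as a description only and support no pattern. KCNIP2, the subunit of the transient outward potassium current whose rhythm in the heart is known to depend on KLF15, was at 3111, 7049 and 4936 in hrLuc replicates 1 to 3 and 4896, 5764, 5071 and 5389 in S100a1 replicates 1 to 4, and the hrLuc label held both its lowest and its highest heart (log2 fold change 0.14 ± 0.23, adjusted p = 0.870, limma). KLF15, a Krüppel-like factor of heart metabolism, was at 1473, 1601 and 1470.1 in hrLuc replicates 1 to 3 and 1409.7, 2514, 1913 and 1876 in S100a1 replicates 1 to 4, highest in S100a1 replicate 2 (0.32 ± 0.16, adjusted p = 0.626, limma). RBM3, an RNA-binding protein induced by cold, was at 712, 659.7 and 866 in hrLuc replicates 1 to 3 and 1010.1, 1209, 504 and 741 in S100a1 replicates 1 to 4, and the S100a1 label held its highest and lowest heart (0.15 ± 0.26, adjusted p = 0.888, limma).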
